A study of Rattus norvegicus with 91 samples.

Results

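The 8 rat genes described here are Pnlip, Slc3a1, Siglec5, Gpatch11, Ano5, Isca1, Tstd1 and Plpp6. They were selected on the measured signals for a step between the HAD2 and LAD2 lines, in which no array of one line reached the values of the other. Every probe set (a group of short probes for 1 transcript) whose array annotation gives exactly 1 gene symbol equal to one of these names was taken. That gave 10 probe sets of 20826 with a single gene symbol, and 8 genes of 14217. Gpatch11 and Isca1 have 2 probe sets each, and the other genes have 1. The genes were chosen by the HAD2 and LAD2 values, so they are given as a description with no test, and the 4 other line pairs carry the tests.

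Tissue of the ventral tegmental area of 91 rats was measured on 1 Affymetrix expression array per animal. The rats came from 10 lines, bred in 5 pairs for high or for low alcohol consumption. The arrays were 8 HAD2 and 9 LAD2, 8 HAD1 and 10 LAD1, 9 P and 10 NP, 10 AA and 10 ANA, and 8 sP and 9 sNP, with the high-consumption line named before its low-consumption partner. No allele, drug or alcohol exposure is given for any line in the labels, which also give neither age nor sex. As background, HAD and LAD stand for high-alcohol-drinking and low-alcohol-drinking rats, and their numbers mark replicate selections. P and NP are alcohol-preferring and non-preferring rats, AA and ANA the Alko alcohol and non-alcohol lines, and sP and sNP the Sardinian preferring and non-preferring lines. Each line is a closed breeding population, so the rats of a line are related, and the tests set line differences against the spread between rats within lines.

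Values are log2 signals between 3.71 and 16.18, so that a difference of 1 is a doubling, and a difference always means high-consumption minus low-consumption line. A probe set was tested if at least 1 line mean reached 7.02, the 40th percentile of all values, which 15163 probe sets did. All 10 probe sets of the 8 genes passed, and all 10 also passed when HAD2 and LAD2 were left out of that filter. Passing needs only 1 line, so a probe set can lie below 7.02 in both lines of a pair. This was so for Siglec5 in P/NP and AA/ANA, for Tstd1 in HAD1/LAD1, and for Ano5 and Gpatch11 1392337_at in P/NP, AA/ANA and sP/sNP. The median difference over all tested probe sets lay between -0.01 and 0.01 in every pair. Signals were not compared between genes, because probe sets differ in how brightly they hybridise. Whether a probe set hybridises equally well in every line was not tested, so a difference in signal may not be a difference in RNA amount.

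The value distributions of the arrays fell into technical sets that follow the labelled pairs with 3 exceptions. The array labelled AA 1 lay in the set of the P and NP arrays, and those labelled AA 19 and ANA 20 lay in the set of the sP and sNP arrays. Labels outside the HAD and LAD lines may therefore be misplaced, and those groups are written as arrays labelled with a line. The 17 arrays of HAD2 and LAD2 made up 1 whole set, and the 18 arrays of HAD1 and LAD1 another. A set that holds both lines of a pair cannot show labels exchanged within that pair. The sets therefore do not check HAD against LAD labels. Th, the dopamine-synthesis gene that marks the dopamine neurons of this region, was at 13.32 to 14.20 in HAD2 and at 13.52 to 14.04 in LAD2. It was as low as 9.12 on an array labelled P and 8.23 on one labelled NP, and its part in the values of those arrays was not tested.

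The ventral tegmental area is a midbrain region whose dopamine neurons project to the forebrain and take part in reward. The 8 genes have no pathway in common. Pnlip encodes pancreatic triacylglycerol lipase, which acinar cells secrete to digest dietary fat. Slc3a1 encodes rBAT, the heavy subunit that carries a cystine and dibasic amino acid exchanger to the surface of kidney and gut cells, and human mutations in it cause cystinuria. Siglec5 encodes a sialic acid-binding immunoglobulin-like lectin, a receptor of myeloid cells in humans, and Ano5 an anoctamin, a membrane protein mutated in human muscular dystrophy. Gpatch11 encodes a protein with a G-patch domain, a domain by which proteins engage RNA helicases. Isca1 encodes a mitochondrial factor of iron-sulfur cluster assembly, Tstd1 a thiosulfate sulfurtransferase, and Plpp6 a phosphatase of polyisoprenoid diphosphates such as presqualene diphosphate.

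The promoters of the pair of genes with the widest steps are shown because both hold a TATA-type motif close to the start site. Each line gives the 100 bases before the gene's start, from RefSeq on assembly GRCr8, on the gene's own strand, with the motif TATAAA in capitals. The Pnlip sequence lies at chr1:267784510-267784609 on the plus strand, and the Slc3a1 sequence at chr6:15394750-15394849 on the minus strand.
Pnlip: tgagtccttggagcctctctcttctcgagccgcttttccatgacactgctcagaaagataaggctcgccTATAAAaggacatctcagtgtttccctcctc
Slc3a1: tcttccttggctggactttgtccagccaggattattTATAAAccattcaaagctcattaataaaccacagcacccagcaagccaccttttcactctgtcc
The motif starts 31 bases before the Pnlip start and 64 bases before the Slc3a1 start. Of the 7 genes with an entry in the promoter table, these were the 2 with TATAAA in the 250 bases before the start on either strand. Of 27457 rat promoters of the same length, 13.1% held the motif on either strand. In the 100 bases on the gene's own strand, 4.13% did. A match of letters is a description and says nothing about whether a factor binds there.

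Between HAD2 and LAD2, 9 of the 10 probe sets did not overlap, and the exception was the second probe set of Isca1. Of these, 5 were higher and 4 lower in HAD2. Over all tested probe sets 1.6% did not overlap in this pair, 0.904% higher and 0.699% lower, and nothing is read from this contrast because it chose the genes. The smallest of the 9 differences was 0.41, for Plpp6, and the largest in size was -2.13, for Slc3a1.

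Pnlip had signals of 6.82 to 7.59 in HAD2 with a median of 7.15, against 8.88 to 9.22 in LAD2 with a median of 9.05. The lines were separated by an empty interval of 1.3 on the log2 scale. The means were 7.18 ± 0.26 in HAD2 and 9.04 ± 0.13 in LAD2 (SD, n = 8 and 9), a difference of -1.86 ± 0.10 (standard error) or 3.63-fold. Ranked by the width of that empty interval, Pnlip was number 10 of the 15163 probe sets. Of 10 measured marker genes of pancreatic acinar cells 1 passed the filter, and their mean signal was 5.57 to 5.86 in HAD2 and 5.67 to 5.89 in LAD2, which overlap. Colipase (Clps), the partner that lets Pnlip act on fat, averaged 5.30 in HAD2 and 5.36 in LAD2, below the filter.

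Slc3a1 had signals of 10.89 to 11.43 in HAD2 with a median of 11.19, against 12.96 to 13.65 in LAD2 with a median of 13.36. The empty interval between the lines was 1.53, number 8 of all tested probe sets and the widest of the 8 genes. The means were 11.19 ± 0.19 in HAD2 and 13.32 ± 0.23 in LAD2 (SD, n = 8 and 9), a difference of -2.13 ± 0.22 (standard error) or 4.39-fold. Every LAD2 array was thus more than a doubling above every HAD2 array. The mean over 10 kidney and gut markers, of which 3 passed the filter, was 6.27 to 6.53 in HAD2 and 6.21 to 6.41 in LAD2.

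Siglec5 had signals of 5.15 to 6.50 in HAD2 with a median of 5.42, against 7.11 to 7.89 in LAD2 with a median of 7.60. HAD2 was not uniform, since HAD2 2 and HAD2 5 had 6.50 and 6.13 while the other 6 lay between 5.15 and 5.64. All HAD2 values were below the filter of 7.02, so the size of the difference, -1.93 ± 0.29 (standard error), rests on dim signals. The mean over 15 microglia and macrophage markers, of which 12 passed the filter, was 7.61 to 8.08 in HAD2 and 7.69 to 7.91 in LAD2. These ranges overlap, and in bulk tissue fewer cells of a type and less RNA per cell cannot be told apart. Whether the Siglec5 probes hybridise equally well in HAD2 and LAD2 was not tested either.

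Ano5 had signals of 8.19 to 8.69 in HAD2 with a median of 8.38, against 6.79 to 7.86 in LAD2 with a median of 7.20. The difference was 1.19 ± 0.14 (standard error) and the empty interval 0.33. That interval was set by LAD2 20 at 7.86, while the other 8 LAD2 arrays lay between 6.79 and 7.35. The mean over 10 skeletal muscle markers, the tissue in which Ano5 is best known, was 6.58 to 6.84 in HAD2 and 6.66 to 6.87 in LAD2, with 4 of them past the filter.

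Both probe sets of Gpatch11 were higher in HAD2 without overlap. Probe set 1384149_at had 9.80 to 10.22 in HAD2 with a median of 9.96, against 8.55 to 8.98 in LAD2 with a median of 8.81. The dimmer probe set 1392337_at had 6.89 to 7.43 in HAD2 with a median of 7.05, against 6.41 to 6.77 in LAD2 with a median of 6.53. The differences were 1.19 ± 0.08 and 0.53 ± 0.08 (standard error), so the probe sets shared the sign but not the size. Array by array they did not move together, with a Pearson correlation of -0.41 over the 17 arrays once the line means were taken out.

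The probe sets of Isca1 disagreed, and the cause was not tested. Probe set 1388603_a_at had 10.25 to 10.99 in HAD2 with a median of 10.64, against 11.53 to 12.59 in LAD2 with a median of 11.95. Probe set 1388613_at had 10.34 to 11.02 in HAD2 with a median of 10.63, against 10.40 to 10.79 in LAD2 with a median of 10.59. The first showed a step, -1.39 ± 0.10 (standard error), and the second overlapped across its whole LAD2 range, with a difference of 0.05 ± 0.11. The deviations of the 2 probe sets from the line means correlated at 0.08 over 17 arrays. Within LAD2 the first probe set split, with LAD2 15, 17 and 18 at 12.53 to 12.59 and the other 6 at 11.53 to 12.10.

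Tstd1 had signals of 7.84 to 8.66 in HAD2 with a median of 8.37, against 7.06 to 7.61 in LAD2 with a median of 7.22. The difference was 1.03 ± 0.19 (standard error), about a doubling, with an empty interval of 0.23. Plpp6 had signals of 10.24 to 10.45 in HAD2 with a median of 10.35, against 9.86 to 10.12 in LAD2 with a median of 9.93. Its difference was the smallest of the 8 genes, 0.41 ± 0.05 (standard error), and its lines were tight, with an SD of 0.08 in HAD2 and in LAD2.

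**Figure D1:**
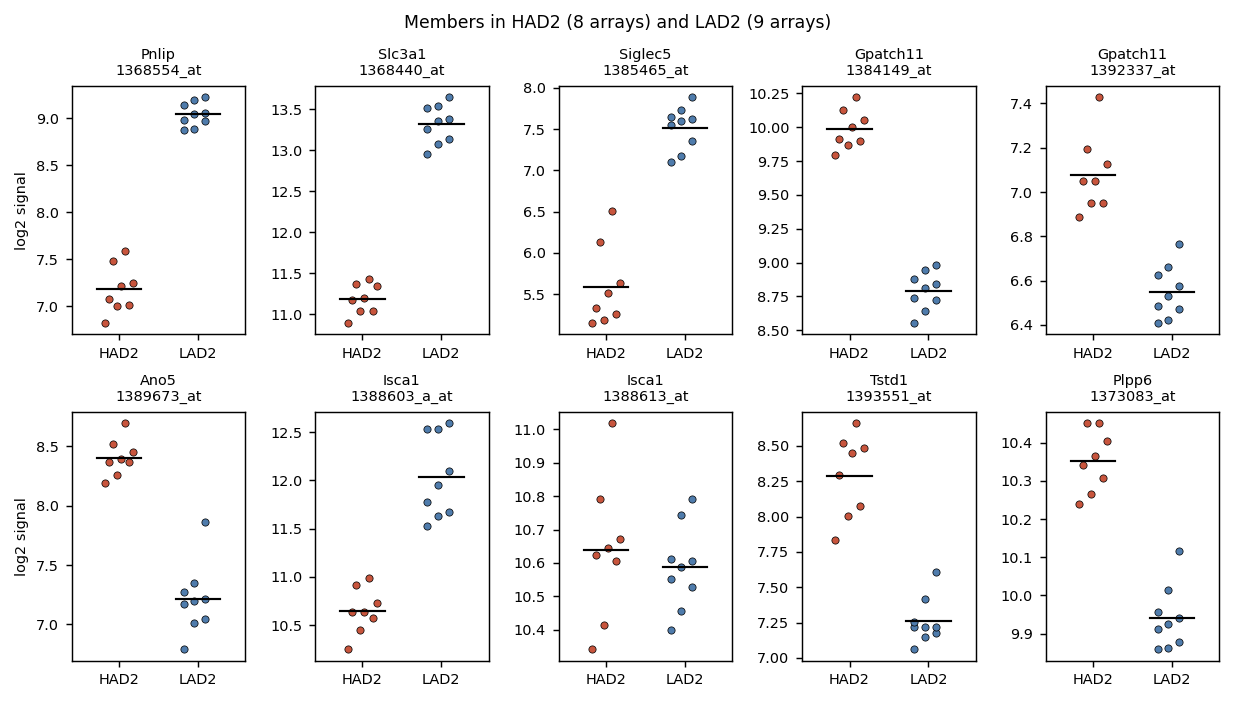
Log2 signal of the 10 probe sets in HAD2 (8 arrays) and LAD2 (9 arrays), 1 panel per probe set, each with its own axis that does not start at 0. Each point is 1 array, with its place across chosen to separate points, and the bar is the line mean. 9 panels show no overlap, and the second probe set of Isca1 (1388613_at) overlaps.

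The separation stayed at 9 of 10 probe sets whichever of the 17 arrays was left out. Leaving out an array cannot make separated ranges meet, so nothing is read from that count. The Gapdh control, whose 3' minus 5' signal rises as RNA is shorter, gave 3.01 to 3.75 in HAD2 and 2.93 to 4.03 in LAD2, which overlap. It averaged 3.42 in HAD2 and 3.58 in LAD2, 1.89 in HAD1 and 1.78 in LAD1, and between 0.14 (P) and 0.57 (ANA) in the other lines. The pairs thus differed in this measure, and its part in differences between pairs was not tested.

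HAD1 and LAD1 are the replicate selection of the same pair of breeding goals and were not used to choose the genes. Gpatch11 was higher in HAD1 on both probe sets, and it was the only one of the 8 genes called by limma in this pair. These 2 probe sets of 10 stand against 4.09% of all tested probe sets, 2.16% higher and 1.93% lower. Without adjustment 2 of the 10 had p under 0.05, as had 1921 of all 15163 probe sets.

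Gpatch11 1384149_at had 9.47 to 10.15 in HAD1 with a median of 9.66, against 8.71 to 9.62 in LAD1 with a median of 8.97. The difference was 0.73 ± 0.08 (standard error), or 1.65-fold, with a limma adjusted p of 1.64e-10. The array LAD1 37, at 9.62, was the only one of LAD1 inside the HAD1 range. Without it the highest LAD1 value was 9.16, the lines did not overlap, and the difference was 0.79 ± 0.08 (limma adjusted p = 2.36e-13). With all arrays 0.204% of probe sets did not overlap in this pair, and without LAD1 37 it was 1.44%, so that array closed the gap at many other probe sets too.

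Gpatch11 1392337_at had 6.95 to 7.54 in HAD1 with a median of 7.23, against 6.70 to 7.15 in LAD1 with a median of 6.82. The ranges overlapped, and the difference was 0.38 ± 0.08 (standard error; limma adjusted p = 0.000351). Within these lines the probe sets moved together, with a correlation of 0.58 over 18 arrays around the line means. In P and NP, AA and ANA, and sP and sNP the 95% intervals of both Gpatch11 probe sets include 0.

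Slc3a1 showed no line difference in HAD1 and LAD1, but 1 array of each line stood far below the rest. HAD1 had 10.44 to 13.01 with a median of 12.77, and LAD1 had 10.19 to 13.06 with a median of 12.78. HAD1 27 was at 10.44 while the other 7 lay between 12.52 and 13.01, and LAD1 37 was at 10.19 while the other 9 lay between 12.69 and 13.06. The drop of each low array below its line was thus about as large as the step between HAD2 and LAD2. The difference was -0.07 ± 0.22 (95% interval -0.51 to 0.36) over all arrays and -0.04 ± 0.15 (95% interval -0.34 to 0.25) without both. Leaving out LAD1 37 alone made it -0.34 ± 0.18 (limma adjusted p = 0.395), so the single arrays set the value.

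**Figure D2:**
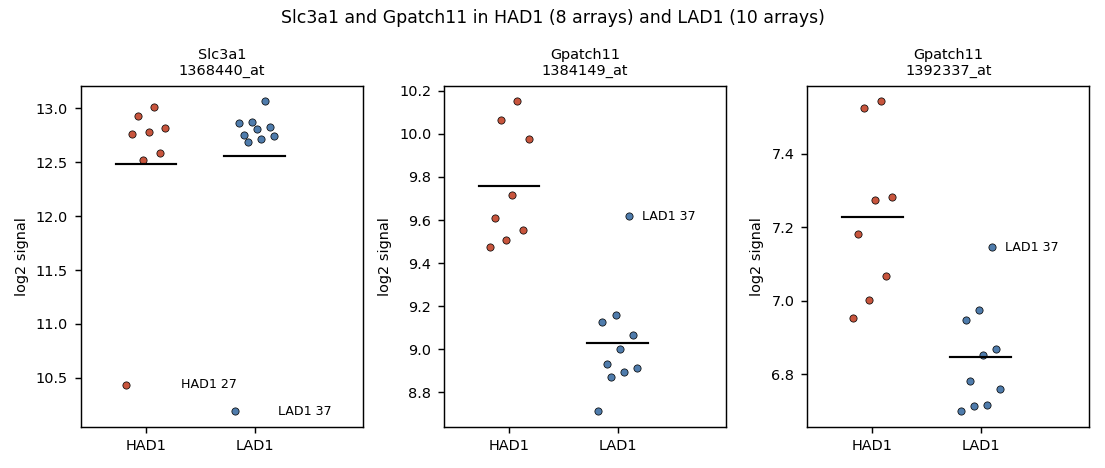
Log2 signal of Slc3a1 and of both Gpatch11 probe sets in HAD1 (8 arrays) and LAD1 (10 arrays), with axes that do not start at 0. Points are arrays and bars are line means. HAD1 27 and LAD1 37 are low for Slc3a1, at 10.44 and 10.19, and LAD1 37 is high for Gpatch11, at 9.62 on 1384149_at.

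None of the other 6 genes was called in HAD1 and LAD1. Pnlip had a difference of 0.16 ± 0.10 (95% interval -0.03 to 0.35), of the opposite sign to HAD2 and LAD2. Ano5 had 0.27 ± 0.14 (95% interval -0.01 to 0.55), with 6.96 to 7.29 in HAD1 and 6.36 to 7.33 in LAD1. Siglec5 had 0.04 ± 0.29 (95% interval -0.53 to 0.61), a wide interval. Isca1 had -0.02 ± 0.10 and -0.04 ± 0.10 on its probe sets, Tstd1 0.00 ± 0.18 (95% interval -0.36 to 0.37) and Plpp6 0.04 ± 0.04 (95% interval -0.05 to 0.13). The intervals of all 6 exclude the HAD2 and LAD2 differences of the stepping probe sets. Those differences were large by choice of the genes, so nothing is read from the exclusion.

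No probe set of the 8 genes was called between the arrays labelled P and NP, where 0% of all probe sets were called by limma and 870 had an unadjusted p under 0.05. The pooled differences hid large spreads in Siglec5 and Tstd1, which were singled out after their values were seen. Siglec5 had 5.42 to 7.37 on the arrays labelled P with a median of 6.56, and 4.80 to 7.83 on those labelled NP with a median of 6.07. By animal number, the arrays labelled P 1 to 5 lay between 6.56 and 7.37 and P 7 to 10 between 5.42 and 5.61. The arrays labelled NP ran the other way, with NP 1 to 5 between 4.80 and 5.75 and NP 6 to 10 between 6.39 and 7.83. Among animals 1 to 5 the arrays labelled P thus lay above those labelled NP, and among animals 7 to 10 below them. The pooled difference was 0.13 ± 0.28 (standard error). The split was made after seeing these values. How many of all probe sets it separates was not counted, so nothing particular to Siglec5 is read from it.

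Tstd1 had 7.88 to 8.95 on the arrays labelled P with a median of 8.35, and 6.80 to 8.72 on those labelled NP with a median of 8.19. The arrays labelled NP 1, 5, 6 and 8 lay between 6.80 and 7.08, below every array labelled P, and the other 6 lay between 8.16 and 8.72. The difference was 0.64 ± 0.18 (standard error; limma unadjusted p = 0.000636, adjusted p = 0.817). With arrays weighted by their quality, Tstd1 (0.92, limma adjusted p = 0.000443) and Siglec5 (0.90, limma adjusted p = 0.0135) were called, which the equal weighting did not show. The remaining differences of this pair lay between -0.14 for Pnlip and 0.05 for Slc3a1.

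**Figure D3:**
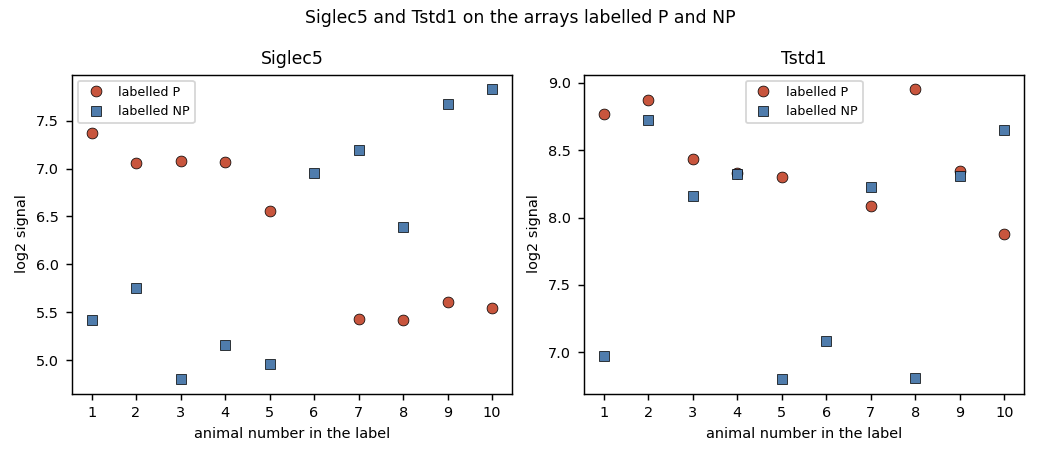
Log2 signal of Siglec5 and Tstd1 (axes that do not start at 0) against the animal number in the label, for the arrays labelled P (circles, 9 arrays) and NP (squares, 10 arrays). For Siglec5 the arrays labelled P are high at numbers 1 to 5 and low at 7 to 10, and those labelled NP the reverse.

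Between the arrays labelled AA and ANA, Pnlip was higher and Siglec5 and Tstd1 lower in those labelled AA. These 3 of 10 probe sets compare with 3.17% of all tested probe sets called by limma, 1.75% higher and 1.42% lower. Pnlip and Tstd1 thus had the opposite sign to their HAD2 and LAD2 difference, and Siglec5 the same sign with a smaller size.

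Pnlip had 8.62 to 9.09 on the arrays labelled AA with a median of 8.75, against 7.86 to 9.0 on those labelled ANA with a median of 8.14. ANA 20 was at 9.0, while the other 9 labelled ANA lay between 7.86 and 8.64. The difference was 0.52 ± 0.09 (standard error), or 1.44-fold, with a limma adjusted p of 3.13e-05. Within the technical set that holds most of these arrays, 8 labelled AA at 8.62 to 8.95 stood against 9 labelled ANA at 7.86 to 8.64, and the difference was 0.56 ± 0.09 (limma adjusted p = 2.72e-06). The call thus remained without the 3 arrays that lay in other sets.

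Siglec5 had 5.31 to 7.74 on the arrays labelled AA with a median of 5.68, against 6.14 to 8.12 on those labelled ANA with a median of 6.91. The arrays labelled AA 5 and AA 19, at 7.32 and 7.74, lay above the other 8, which ran from 5.31 to 6.28. The difference was -0.90 ± 0.27 (standard error; limma adjusted p = 0.0440), and within the 1 technical set -0.91 ± 0.27 (limma adjusted p = 0.0374). The call was lost when any 1 of AA 1, 3, 7, 9, 11, 13 and 15 or of ANA 2, 4, 6, 8, 10 and 20 was left out, with differences of -0.90 to -0.76 and limma adjusted p of 0.0616 to 0.0973. It was also lost when the pair was fitted alone (limma adjusted p = 0.181). The mean over the microglia and macrophage markers was 7.83 to 8.64 on the arrays labelled AA and 7.82 to 8.40 on those labelled ANA.

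Tstd1 had 7.22 to 9.06 on the arrays labelled AA with a median of 8.56, against 8.43 to 9.69 on those labelled ANA with a median of 9.02. The arrays labelled AA 3 and AA 11, at 7.60 and 7.22, were the lowest, and the other 8 overlapped the arrays labelled ANA. The difference was -0.60 ± 0.17 (standard error; limma adjusted p = 0.0335), and within the 1 technical set -0.69 ± 0.19 (limma adjusted p = 0.0189). Without any 1 of AA 3, 11 and 15 or of ANA 2, 10, 16 and 18 the call was lost, with differences of -0.59 to -0.47 and limma adjusted p of 0.0544 to 0.144. The pair fitted alone gave a limma adjusted p of 0.181.

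The other 5 genes were not called in AA and ANA. Isca1 had 0.15 ± 0.09 and 0.21 ± 0.10 (standard error) on its probe sets, the second with a 95% interval of 0.01 to 0.40 and a limma adjusted p of 0.335. Slc3a1 (0.05 ± 0.21), Ano5 (0.05 ± 0.13) and Plpp6 (0.04 ± 0.04) had intervals that include 0, as had the Gpatch11 probe sets (0.00 ± 0.08 and -0.01 ± 0.07).

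Between the arrays labelled sP and sNP none of the 10 probe sets was called by limma and none had an unadjusted p under 0.05. Over all tested probe sets 0% were called, and 172 had an unadjusted p under 0.05. The differences ran from -0.16 (Tstd1) to 0.08 (Gpatch11 1384149_at), with intervals as wide as -0.52 to 0.64 for Siglec5. Slc3a1, for example, had 9.64 to 10.51 on the arrays labelled sP and 9.23 to 10.24 on those labelled sNP.

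**Figure D4:**
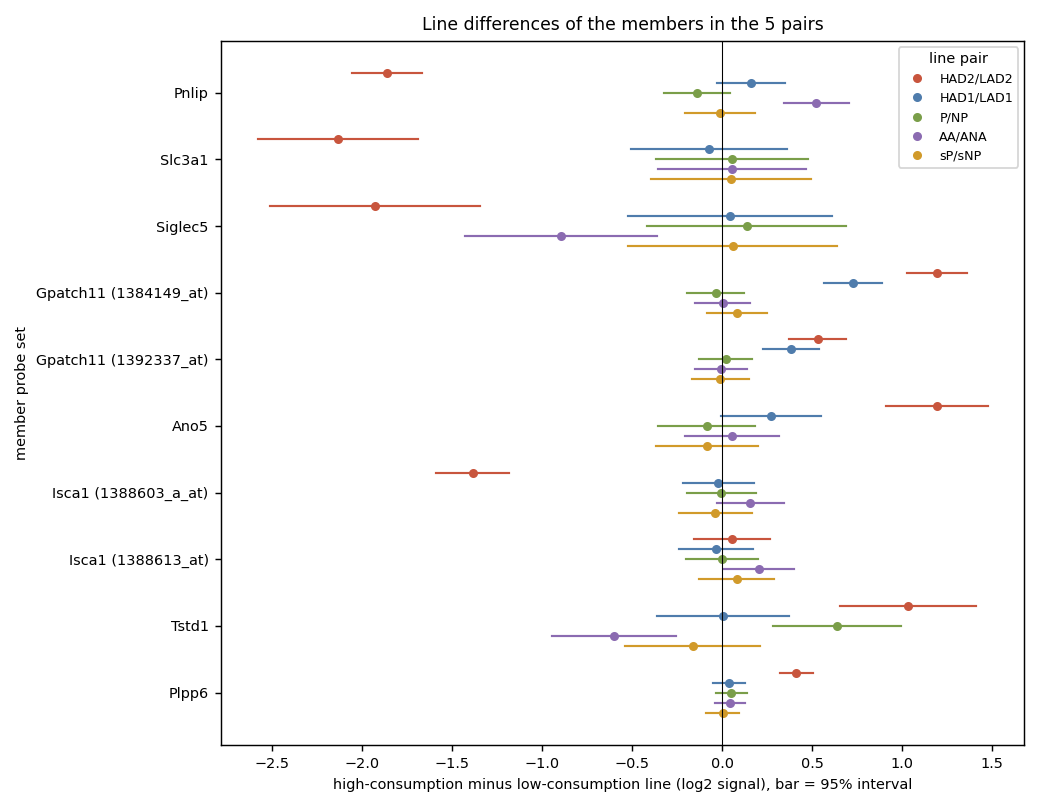
High-consumption minus low-consumption line (log2 signal, points) with 95% intervals (bars) for the 10 probe sets in the 5 pairs, from 1 fit of all arrays. The HAD2/LAD2 differences chose the genes and run from -2.13 to 1.19; elsewhere the largest in size is -0.90, for Siglec5 in AA/ANA.

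Whether the line difference depended on the pair was tested over the 4 pairs that did not choose the genes, with a moderated F test of equal differences. It was called for 4 of 10 probe sets, against 3.03% of all tested. These were Gpatch11 1384149_at (limma adjusted p = 6.28e-07), Gpatch11 1392337_at (0.0295), Pnlip (0.00128) and Tstd1 (0.00478), while Siglec5 had 0.304. Of the 36 combinations of the 9 stepping probe sets with these pairs, 1 had a 95% interval that includes the HAD2 and LAD2 difference of the same probe set, Gpatch11 1392337_at in HAD1 and LAD1 (0.23 to 0.54). Of the same 36, 20 had the sign of HAD2 and LAD2. The HAD2 and LAD2 differences chose the genes and carry their own error. Nothing is therefore read from how many intervals leave them out.

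The 8 genes lie on 4 chromosomes in GRCr8. Ano5, Plpp6, Pnlip and Siglec5 lie on chromosome 1, Slc3a1 and Gpatch11 on chromosome 6, Tstd1 on 13 and Isca1 on 17. Slc3a1 and Gpatch11 have 47 protein-coding genes between them in the annotation. The 5 nearest tested genes on each side of each of the 8 make 80 genes. None of the 80 separated HAD2 from LAD2, a separation seen at 1.6% of all tested probe sets. At that share few or none of 80 would separate, so nothing particular to the neighbours is read from the count. The neighbours' differences ran from -0.45 ± 0.07 (standard error; Ak3, a mitochondrial adenylate kinase) to 0.50 ± 0.16 (Rln1, a relaxin). Both lie near Plpp6, and both are larger in size than its 0.41.

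**Figure D5:**
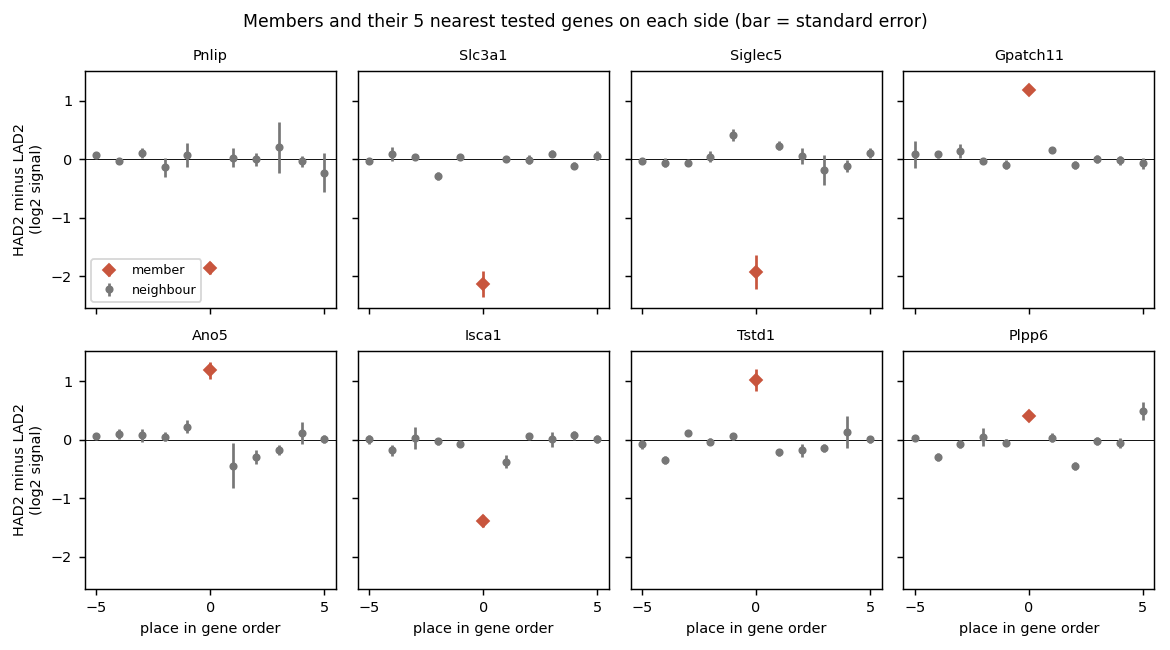
HAD2 minus LAD2 difference (log2 signal, bar = standard error) of each of the 8 genes (diamond, its brighter probe set) and of the 5 nearest tested genes on either side in chromosome order (circles). The 80 neighbours lie between -0.45 and 0.50, and the diamonds lie outside their own neighbours except for Plpp6 at 0.41.

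In HAD1 and LAD1 5 of the 80 neighbours were called by limma, against 4.09% of all tested probe sets, and nothing particular to them is read from the count. Ak3 (0.38 ± 0.07, adjusted p = 6.06e-05) was higher and Rln1 (-0.59 ± 0.15, adjusted p = 0.00831) lower in HAD1, each opposite in sign to HAD2 and LAD2. Zfp715 (0.35 ± 0.10, adjusted p = 0.0229), a zinc finger gene beside Siglec5, was higher, as were the gene annotated as Mir23b (0.26 ± 0.07, adjusted p = 0.0180) and the genome-maintenance gene Rmi1 (0.24 ± 0.06, adjusted p = 0.00427) near Isca1. Of the 10 neighbours of Gpatch11 0 were called, from which nothing is read at a share of 4.09%. Of all 80 neighbours the number called was 3 without HAD1 22, 3 without LAD1 40 and 8 without LAD1 37.

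Genes that work with the 8 were followed in 8 lists of 147 genes, of which 125 were measured and 108 tested. The calls are read against 4.09% of all tested probe sets in HAD1 and LAD1 and 3.17% in AA and ANA, and nothing particular to the lists is read from counts this close to those shares or below them. In HAD1 and LAD1 1 of the 108 was called higher and 0 lower: Gpatch2, a further G-patch gene (0.38 ± 0.06, limma adjusted p = 4.13e-06). On the arrays labelled AA and ANA 4 of the 108 were called, of which 2 were higher, the lysosomal acid lipase gene Lipa (0.28 ± 0.09, limma adjusted p = 0.0439) and the glutamate and cysteine transporter gene Slc1a1 (0.26 ± 0.05, limma adjusted p = 0.000497). The 2 lower were Xkr4, of a family of scramblases (-0.59 ± 0.11, limma adjusted p = 0.000172), and Bola1, of iron-sulfur cluster biology (-0.38 ± 0.08, limma adjusted p = 0.00210). In P and NP and in sP and sNP 0 were called by limma.

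The median difference of the listed genes was 0.02 in HAD2 and LAD2, -0.01 in HAD1 and LAD1 and 0.00 in AA and ANA, beside 0.01, 0.00 and 0.00 over all tested probe sets. Between HAD2 and LAD2 the arrays of 1 of the 108 listed genes did not overlap, against 1.6% of all tested probe sets. It was Tst (0.28 ± 0.06), a thiosulfate sulfurtransferase gene related to Tstd1. The 18 tested genes of the G-patch list, the 11 of amino acid transport and the 20 of iron-sulfur assembly held no gene whose lines did not overlap.

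Over the 17 HAD2 and LAD2 arrays the genes with the closest pattern to each of the 8 were taken from the whole table, and their correlation was given again with the line means taken out. Pnlip was closest to RT1-T24-4 (Pearson r = -0.98) and Slc3a1 (0.97), and with the line means taken out these were -0.18 and 0.11. Slc3a1 was closest to Dusp12 (0.97) and RT1-T24-4 (-0.97), with 0.58 and 0.27 without line means. For Siglec5 they were RT1-T24-4 (-0.95 and, without line means, -0.59) and Lysmd4 (0.95 and 0.59).

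The remaining 5 genes are given in the same way. Gpatch11 was closest to Amd1 (-0.98 and, without line means, -0.70) and Cldn10 (0.97 and 0.56), and Tstd1 to Cldn10 (0.98 and 0.88) and Vegfb (0.94 and 0.70). Ano5 was closest to Rab22a (0.95 and 0.69) and Focad (0.95 and 0.69), Isca1 to Ano5 (-0.94 and -0.60) and Ift140 (-0.93 and -0.55), and Plpp6 to Ccdc51 (0.95 and 0.65) and Ndufaf4 (0.94 and 0.55). These genes were picked as the closest of the whole table, and the arrays share their normalization and labelling, so the correlations are descriptions.

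Among the 10 probe sets themselves, within-line deviations correlated with both signs. Over the 45 pairs the correlation ran from -0.60 to 0.75 with a median of 0.04 in HAD2 and LAD2 (17 arrays), and from -0.48 to 0.73 with a median of -0.03 in HAD1 and LAD1 (18 arrays). The correlation was beyond 0.3 in size for 16 of the 45 in HAD2 and LAD2 and for 18 in HAD1 and LAD1. Slc3a1 and Gpatch11 1384149_at, on the same chromosome, had 0.12 in HAD2 and LAD2 and -0.27 in HAD1 and LAD1. The second value includes LAD1 37, far low for Slc3a1 and high for Gpatch11, and was not computed without that array. The Isca1 probe sets had 0.73 in HAD1 and LAD1, against 0.08 in HAD2 and LAD2.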

How the data were processed

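The deposited values are log2 signals that the authors made with RMA, a method that corrects background, normalizes quantiles and summarises probes, per the submitters' processing notes. Its version was not given in the sources used here, nor whether the arrays were normalized together. Per the labels' protocols, biotin cRNA was made from 25 ng of total RNA in 2 cycles of amplification. Of 31099 probe sets, 57 controls were left out, 20826 had 1 gene symbol in the platform annotation, 436 had several and 9780 had none. By gene ID, 20758 matched a GRCr8 table, used for names and gene order.

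Lines and animals were taken from the sample titles. All 91 arrays entered 1 limma 3.58.1 fit (lmFit and eBayes in R 4.3.3) of 10 line means, leaving 81 residual degrees of freedom. Contrasts were 2-sided, adjusted by Benjamini-Hochberg over all 15163 tested probe sets and called at an adjusted p under 0.05. The F test has 3 numerator degrees of freedom. Overlap means that the arrays' ranges meet. Technical sets are 5 clusters of array quantiles, a number that was chosen. On simulated data for HAD1/LAD1 with 15163 probe sets, 48% of changes of 0.25, 84% of 0.5 and 96% of 1 were recovered. Of 173 calls 9 were false. The changed probe sets were drawn from the whole table, where the median standard error was 0.07. Siglec5, Slc3a1 and Tstd1 had 0.29, 0.22 and 0.18 in this pair, so these shares do not hold for them.

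The genes and lists were chosen with earlier results of these data known. Named genes are the 8 genes, listed genes called in a pair, neighbours called in HAD1/LAD1 (or differing by 0.58 in HAD2/LAD2, of which there were 0), and the 2 closest patterns per gene. The promoter motif was chosen after seeing the data. Alternatives were other filters, normalizations and fits, a replicate block, a fold of 1.5 and each array left out. The check of same-numbered arrays found correlations of -0.71 to 0.70 over 9 pairs of P and NP and of -0.37 to 0.29 over 8 pairs of sP and sNP, so numbers were not taken to pair animals. The number of arrays limits the precision.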

Additional observations from a re-analysis of the deposited data

Results flagged for a closer look

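Of 100 groups of arrays (10 probe sets in 10 lines), 10 held an array whose gap to the rest of its line was large for the line's range, a check that chance meets in about 1 in 20 groups. Slc3a1 had HAD1 27 at 10.44, LAD1 37 at 10.19 and the array labelled ANA 16 at 8.92, all lowest in their line. Gpatch11 1384149_at had LAD1 37 at 9.62 and the array labelled sNP 4 at 8.87, both highest, and that labelled P 10 at 8.31, the lowest. Pnlip had the array labelled sNP 9 at 9.38, the highest. Ano5 had the array labelled ANA 20 at 5.91, Isca1 1388613_at that labelled P 10 at 10.50 and Plpp6 that labelled AA 1 at 9.25, all lowest. LAD1 37 was thus apart for Slc3a1 and for Gpatch11 1384149_at, but not for Gpatch11 1392337_at. The arrays labelled AA 1 and ANA 20 are among the 3 that lay in the technical set of another pair.

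The line difference depended on the pair, over the 4 pairs that did not choose the genes, for Gpatch11 1384149_at (limma adjusted p = 6.28e-07), Gpatch11 1392337_at (0.0295), Pnlip (0.00128) and Tstd1 (0.00478). Gpatch11 differed in HAD1/LAD1, Pnlip in AA/ANA, and Tstd1 had 0.64 in P/NP and -0.60 in AA/ANA.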

How the results depend on the processing

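The 10 probe sets gave 9 without overlap between HAD2 and LAD2 whichever array was left out, an outcome that could not have been lower. They gave 8 with 1 probe set per gene and 6 at the 60th percentile filter, which 3 of the 10 do not pass. Slc3a1 moved to -2.40 in HAD2/LAD2 after quantile normalization over all arrays. In HAD1/LAD1, where 2 probe sets were called, the dimmer Gpatch11 probe set was not counted at the 60th percentile filter, with 1 probe set per gene or at a fold of at least 1.5, which each left 1. Of the 3 calls in AA/ANA 1 remained when each pair was fitted alone, and between 1 and 3 when an array was left out. The calls of Siglec5 and Tstd1 in AA/ANA were the ones lost, and Siglec5 was also lost with no filter (limma adjusted p = 0.0517). Array weights gave 2 calls in P/NP, against 0 with equal weights, and a call of Isca1 1388613_at in AA/ANA (0.22, limma adjusted p = 0.0304). The listed genes gave 5 calls, 22 with array weights and 1 at a fold of at least 1.5, and 4 to 6 when an array was left out. The genomic neighbours gave 5 calls, 9 with array weights and 1 at a fold of at least 1.5, and 3 to 8 when an array was left out. The F test, with 4 calls, gave 3 to 4 when an array was left out, 3 at the 60th percentile filter or with 1 probe set per gene, and 6 with array weights. The filters, the fit of a pair alone and the arrays left out change how many probe sets or arrays enter a test, and for array weights the cause was not tested.

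With the animal number as a replicate block, 0 probe sets of the 8 genes were called in P/NP and 0 in sP/sNP, as without it. Of the P/NP pairs of the same number 6 of 9 correlated over 0.1, and 1 array correlated best with its own number. Of the sP/sNP pairs 1 of 8 did, and 0 correlated best. No called difference of the 8 genes, and none of the 9 without overlap in HAD2/LAD2, changed its sign under any setting run. For those 9, leaving out an array could not have changed the sign. Array numbers of 8 to 10 per line limit the precision.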
